A study of Mus musculus with 3 samples.

Results

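The limb-type mesenchyme described here was 180 cells of 6787 kept barcodes in libraries 1 to 4 of the series, a share of 2.65% (95% interval 2.28 to 3.06%). Members were the barcodes with at least 1 unique molecular identifier (UMI) of Prrx1, at least 1 UMI of Lmx1b or Shox2 together, and no UMI of Wnt2, Elavl3, Elavl4, Sox2, Pax1, Pax9, Pax3, Pax7 or Cdh5. Barcodes were kept at 1000 or more UMIs, 500 or more genes and at most 10% mitochondrial UMIs. Over all 8 libraries 9383 of 9492 deposited barcodes were kept. The cells came from E10.5 mouse embryos, from the aorta-gonad-mesonephros (AGM) region, in which the aortic wall produces the earliest haematopoietic stem cells, and the series asked how cells of that region signal to each other during this step. Embryos of 28 to 32 somite pairs were dissected and pooled, and 3 populations with 1 sample each were sorted. These were live cells negative for the red cell antigen Ter119 (the niche), an endothelial gate of cells negative for Ter119 and CD41 and positive for CD31, VE-cadherin and cKit, and a gate for type 1 pre-haematopoietic stem cells with the same antigens but low CD41. Strain and genotype are not given in the sources used here, and the labels name no treatment.

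Single-cell RNA was counted by 10x Genomics version 2 droplets, which read the 3' end of each transcript. No label tied a barcode suffix to a sort, so the pooled matrix was 1 sample, no test across samples was possible, and libraries may be technical repeats drawn from the same sorted cells. Levels are CPM (counts scaled to the same total) of the UMIs summed over a group of cells, with exact Poisson 95% intervals, and shares of cells have exact Clopper-Pearson 95% intervals. Both cover counting error only. A gene was called higher or lower where the log2 ratio of (CPM + 10) between groups was at least 1 in size, the higher group had at least 50 CPM and every library with enough cells of both groups had the same direction. For a called gene, lack of overlap between groups by library is thus largely set by the call and is given as description.

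Prrx1 encodes a homeodomain factor of lateral plate and limb bud mesenchyme, the loose tissue that gives rise to the skeleton, tendon and connective tissue of the limb. Lmx1b is the homeodomain factor that gives the limb bud its dorsal identity, and Shox2 is needed for the proximal limb skeleton. Pitx1 and its target Tbx4 belong to the hindlimb, and Tbx5 to the forelimb. Lhx2, Lhx9 and Msx1 act in limb bud mesenchyme in response to signals of the apical ectodermal ridge, and the Hox genes at the 5' end of the A, C and D clusters mark posterior and distal positions. Lmx1b and Shox2 are also used outside the limb, Lmx1b among others in neurons and the kidney.

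The 180 cells were spread over libraries 1, 2, 3 and 4 as 46, 38, 35 and 61 cells, which made 2.52%, 2.31%, 2.20% and 3.54% of the kept barcodes of each library. In libraries 5 to 8, 2 of 2596 kept barcodes met the rest of the rule. Of 1909 cells with Prrx1, 234 also had Lmx1b or Shox2, and 54 of these were set aside for a UMI of a gene required at 0, most often Elavl3 or Elavl4 (24 cells), Wnt2 (18 cells) or Pax3 or Pax7 (15 cells). A further 40 cells had Lmx1b or Shox2 and met the zeros but had no Prrx1 UMI. At the edge of the rule, 71 members had a single UMI of Lmx1b and Shox2 together, with a median of 8549 UMIs per cell, and 109 had 2 or more, with a median of 11048. Members held a median of 9907 UMIs (2835 to 22133), against 7344 in all other kept barcodes of these libraries, and their median mitochondrial share was 2.41% against 2.48%. Of 338 barcodes with the highest 5% of doublet scores, 5 were members, and 1 member shared its barcode sequence with another library.

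Among the genes that chose the cells, and so as a description only, Prrx1 had 447 CPM (418 to 479) in limb-type cells against 70.6 CPM in all other barcodes. Lmx1b had 101 CPM (106, 102, 129 and 87.1 in libraries 1 to 4) against 1.40 CPM, and Shox2 had 143 CPM (136, 193, 157 and 115) against 3.87 CPM. The remaining markers of the label, Pitx1 and Lix1, were no part of the rule and are described below with values that bear on the name: Lix1 was detected in 148 of 180 cells and Pitx1 in 100 of 180. Both were at like levels in Wnt2-positive mesenchyme, so these markers set the cells apart from most of the matrix but not from every other mesenchyme.

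Lmx1b was accompanied by C130021I20Rik, a noncoding RNA gene that starts beside it on the opposite strand. In the GENCODE annotation of mm10, Lmx1b (ENSMUSG00000038765) lies on the minus strand at chr2:33560965-33640511 and C130021I20Rik (ENSMUSG00000052951) on the plus strand at chr2:33641193-33646354, with 681 bases between their starts and no overlap. RefSeq places the starts closer, 94 bases apart. The sequence upstream of the RefSeq start of Lmx1b is shown because it holds the space between both starts: GRCm38.p6, chr2:33641099-33641348, minus strand, 250 bases, with the 94 bases between the RefSeq starts in capitals.
Lmx1b upstream: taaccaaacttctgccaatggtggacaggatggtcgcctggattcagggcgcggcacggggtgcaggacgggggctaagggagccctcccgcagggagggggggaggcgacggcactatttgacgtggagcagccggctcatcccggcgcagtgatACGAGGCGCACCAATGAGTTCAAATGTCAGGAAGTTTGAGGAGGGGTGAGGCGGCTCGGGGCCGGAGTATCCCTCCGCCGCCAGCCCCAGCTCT
This stretch held 19 CG dinucleotides, against a median of 6 in the same 250 bases of 32851 RefSeq promoters, of which 19.7% had as many. The motif CCAAT, searched on both strands, occurred at 2 places whose first bases lie 236 and 84 bases before the Lmx1b start, and 33.8% of the promoters held it at least once. C130021I20Rik had 60.4, 54.8, 72.3 and 64.7 CPM in the limb-type cells of libraries 1 to 4, against 0.776, 0.731, 1.54 and 1.55 CPM in all other barcodes. All 4 limb-type values lay above all 4 others, and the pooled levels were 63.0 CPM (52.1 to 75.5) and 1.15 CPM, a log2 ratio of 2.71. Within the limb-type cells the transcript was detected in 26 of 70 cells with Lmx1b alone, 30 of 51 with Lmx1b and Shox2, and 15 of 59 with Shox2 alone. The corresponding levels were 63.1, 94.4 and 31.8 CPM, and the gene was not called between cells with Lmx1b alone and with Shox2 alone. Cells with both genes were the deepest, with a median of 11312 UMIs. After thinning the share was 17.6% (8.40 to 30.9%) in cells with both and 8.62% (2.86 to 18.98%) with Shox2 alone. The share with Lmx1b alone lay between these, and the intervals given overlap. The transcript was therefore also present in cells in which no Lmx1b UMI was counted. Over all limb-type cells its share was 39.4% (13.4% after thinning every cell to 3000 UMIs), against 0 of 69 endothelial barcodes (at least 2 Cdh5 UMIs, median 9470 UMIs) and 1 of 1013 neuronal barcodes (at least 2 UMIs of Elavl3 and Elavl4 together and no Prrx1, median 7040 UMIs).

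Set against all other kept barcodes of libraries 1 to 4, the limb-type cells had more RNA of several limb bud regulators, led by Pitx1, C130021I20Rik and Lhx9, and less of genes such as Tubb3, Pf4 and Meox1. Of 7802 genes at 10 CPM or more in either group, genes of the rule left out, 26 (0.333%) were called higher and 79 (1.01%) lower. Because the cells were chosen on genes of the same matrix, these counts describe the choice and its company and carry no test.

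Pitx1 had 184, 250.4, 204 and 259 CPM in limb-type cells of libraries 1 to 4 against 23.6, 23.9, 27.2 and 23.4 CPM in the other barcodes, with no overlap. The pooled levels were 232 CPM (210.2 to 255) and 24.4 CPM, the largest log2 ratio of the comparison at 2.81. A Pitx1 UMI was present in 100 of 180 limb-type cells, 55.6% (47.98 to 62.9%), against 7.87% of the other barcodes. Background was low: 0 of 69 endothelial barcodes and 0.395% of 1013 neuronal barcodes had one. After thinning the share was 40.8% of limb-type cells.

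Lhx9, a LIM homeodomain factor of limb mesenchyme, had 111, 65.2, 101 and 102 CPM in limb-type cells against 3.57, 7.97, 7.97 and 6.09 CPM in the other barcodes (log2 ratio 2.69). It was detected in 58 of 180 limb-type cells (32.2%; 18.4% after thinning), in 0 of 69 endothelial barcodes, which allows up to 4.35%, and in 0.888% of neuronal ones. Lix1, a gene named for its expression in the chick limb, had 292, 282, 251 and 293 CPM per library against 43.3, 41.1, 48.4 and 43.4 CPM, and was detected in 82.2% of limb-type cells (53.6% after thinning) against 4.35% of endothelial and 2.86% of neuronal barcodes. Msx1, a homeodomain factor induced by bone morphogenetic proteins (BMPs), had 184, 88.7, 198 and 170.2 CPM against 26.6, 28.9, 30.2 and 34.7 CPM, and library 2 was the lowest of the limb-type values. Lhx2, a related LIM homeodomain factor, stood at 46.3 CPM (37.04 to 57.2) against 1.17 CPM, with a log2 ratio of 2.33, and missed the call only on the level of 50 CPM.

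The other genes with the largest ratios were mixed in function. Tril, an accessory of Toll-like receptor signalling, had 167 CPM (149 to 187) against 32.4 CPM (log2 ratio 2.06). Capn6, a calpain without protease activity, had 64.6 against 11.96 CPM, and Cdo1, cysteine dioxygenase, 56.5 against 13.4 CPM. Mecom, a zinc finger factor also known from haematopoietic stem cells, had 67.9 CPM (40.3, 83.5, 50.3 and 81.8 by library) against 17.5 CPM. Irx3, an Iroquois factor of the early limb bud, had 74.3 CPM (101, 88.7, 40.8 and 67.3) against 19.8 CPM. Hoxa10 had 90.6, 78.2, 94.3 and 87.1 CPM against 22.7, 19.96, 20.1 and 19.2 CPM, so that its limb-type libraries lay close together. It was the 1 Hox gene of 28 tested that was called higher, beside 0.333% of all genes tested. Hoxa7, Hoxc6 and Hoxc8 were called lower, beside 1.01% of all genes, at 64.6, 40.9 and 45.8 CPM against 153, 99.2 and 159 CPM. Rarb, a retinoic acid receptor, Twist2, a mesenchymal bHLH factor, and Lef1, a nuclear effector of WNT signalling, were called higher at log2 ratios of 1.32, 1.09 and 1.01.

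**Figure D1:**
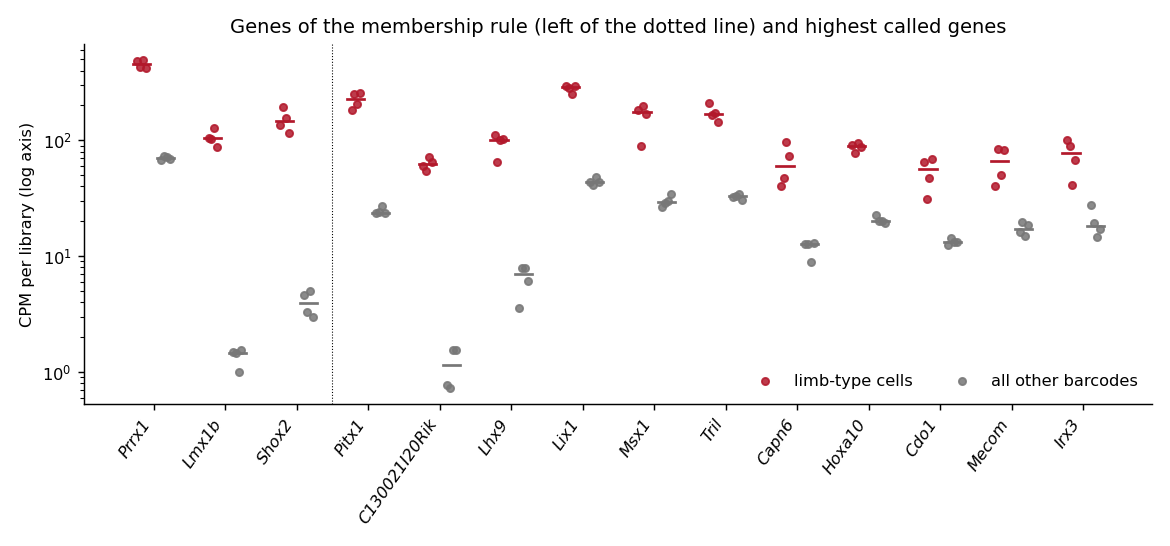
CPM per library (log axis) of the genes of the membership rule, left of the dotted line, and of 11 of the genes with the largest ratios among those called higher; red points are limb-type cells, grey points all other barcodes, each point 1 of libraries 1 to 4, and short lines are medians. Pitx1 lies between 184 and 259 CPM in limb-type cells. The genes right of the line do not overlap between the groups, which follows largely from picking genes called higher in each library.

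Among the genes with the lowest ratios, the neuronal tubulin Tubb3 had 2.69 CPM against 263 CPM, and Stmn2 of growing axons had no UMI in limb-type cells, which allows up to 1.62 CPM, against 179.7 CPM. Nefm, a neurofilament, had 9.69 against 199.5 CPM and the brain creatine kinase Ckb 16.2 against 446 CPM. The rule itself asked for no Elavl3 or Elavl4 UMI. Pf4 of megakaryocytes had no UMI against 168 CPM. The embryonic globin genes Hbb-y, Hba-x and Hbb-bh1 had 1.62, 0.539 and 0 CPM against 359.7, 165 and 149.99 CPM, but 32.99 to 35.02% of the UMIs of the other barcodes came from 1 cell, and library 3 had nearly none (Hba-x 135, 225, 0.181 and 255 CPM by library). The somite factor Meox1 had 15.6 against 136 CPM, the intermediate filament Vim 91.5 against 465 CPM and the matrix protein Sparc 68.4 CPM (55.4, 141, 28.3 and 55.4 by library) against 284 CPM.

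Markers of other cell types had lower pooled sums in the members, but the splanchnic sum was nearly alike (56.5 against 60.5 CPM). The summed CPM of each list is given by library. The rule asked for no UMI of Elavl3, Elavl4, Sox2, Cdh5, Pax1, Pax9, Pax3 or Pax7. Low sums of the neural, endothelial, sclerotome and muscle lists therefore follow in part from the choice of cells. The coelomic and ectodermal lists share Krt8 and Krt18, and the sclerotome and muscle lists share Meox1. The 9 endothelial markers summed to 20.9 to 47.1 CPM in limb-type cells against 147 to 195 CPM in the other barcodes, and Emcn, Tek, Esam and Cldn5 had no UMI. The 9 blood markers summed to 3.96 to 15.6 against 81.8 to 129.8 CPM with 7 of 9 at 0, among them Ptprc, Spi1 and Runx1, and the 11 neural markers to 5.03 to 12.6 against 537 to 607 CPM with 8 at 0. The 7 red cell markers summed to 0 to 5.28 against 2.54 to 1196 CPM with 4 at 0, and the 6 germ cell markers to 0 to 2.52 against 4.97 to 32.0 CPM with 4 at 0. Neural crest markers (6) summed to 15.1 to 25.1 against 67.3 to 78.5 CPM with Sox10 and Foxd3 among those at 0. Coelomic and gonadal markers (10) summed to 6.28 to 25.2 against 86.3 to 113 CPM with 6 at 0, nephric markers (7) to 18.3 to 47.8 against 82.96 to 104 CPM with 4 at 0, ectodermal markers (11) to 3.14 to 40.3 against 69.7 to 82.5 CPM with 8 at 0, and smooth muscle markers (7) to 21.1 to 28.7 against 143 to 194 CPM with Cnn1 and Myh11 at 0. The 7 splanchnic markers, which include Bmp4, summed to 36.5 to 81.7 against 56.9 to 63.9 CPM with 3 at 0, and the 6 sclerotome markers, which include Twist1, to 43.99 to 67.9 against 172 to 191 CPM with Nkx3-2 and Foxc2 among those at 0. The 8 muscle markers summed to 20.1 to 95 against 424 to 517 CPM with Lbx1 at 0. In 1 member cell, of library 4 and without Pitx1, lay 97.3% of the Myog UMIs and 90% of the Actc1 UMIs of the limb-type cells.

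The nearest comparison is with the 866 cells that had Prrx1 and met every zero but held no Lmx1b or Shox2 UMI (median 7379 UMIs per cell). Of 7622 genes tested, 12 (0.157%) were called higher in limb-type cells and 41 (0.538%) lower. Lhx9 had 95.9 CPM against 7.92 CPM (log2 ratio 2.56), C130021I20Rik 63.0 against 2.93 CPM (2.497), Pitx1 232 against 35.95 CPM (2.39) and Msx1 161 against 25.8 CPM (2.25). Hoxa10, Irx3 and Lix1 were called at log2 ratios of 1.73, 1.59 and 1.41. Hoxa9 had 123 against 46.8 CPM, and Crabp1, a retinoic acid binding protein, 1057 against 474 CPM. Over all Hox genes, 28 were tested, Hoxa9 and Hoxa10 were called higher, and Hoxc6 and Hoxc8 were called lower at 40.9 and 45.8 CPM against 105 and 167 CPM. How many of the 866 cells express Lmx1b or Shox2 below detection was not tested.

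Of the markers of smooth muscle 2 of 5 tested were called lower in limb-type cells than in the other Prrx1-positive cells, and of those of muscle 2 of 4, beside 0.538% of all genes tested. Smooth muscle actin Acta2 had 0, 5.22, 6.28 and 3.96 CPM in libraries 1 to 4, against 182, 295, 203 and 224 CPM, a log2 ratio of -4.12. Tagln, another smooth muscle gene, had 2.15 against 74.3 CPM and the myosin light chain Myl9 12.9 against 109.8 CPM. Meox1 had 15.6 against 168 CPM, and Ebf1, a helix-loop-helix factor of somite and other mesenchyme, 11.3 against 100.4 CPM. Actc1, the cardiac and embryonic muscle actin, had 10.8 against 108 CPM. Cxcl12, a chemokine that attracts migrating cells, had 29.1 CPM (21.8 to 37.9) against 146 CPM, and Aldh1a2, which makes retinoic acid in the trunk, 16.7 against 70.7 CPM. Cartilage collagen genes were also called lower, Col2a1 at 25.3 against 69.6 CPM and Col9a1 at 14.0 against 66.5 CPM. The smooth muscle markers summed to 21.1 to 28.7 CPM by library in limb-type cells against 301 to 467 CPM, and the muscle markers to 20.1 to 95 against 276 to 386 CPM. Their part in the difference was not tested.

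Wnt2-positive mesenchyme (326 cells with Prrx1 and Wnt2, no Lmx1b or Shox2 and the other zeros met; median 7618.5 UMIs) had Pitx1, Lix1, Msx1 and Irx3 at like levels. Pitx1 had 232 CPM (210.2 to 255) in limb-type cells and 192 CPM (176 to 209.7) in Wnt2-positive cells, Lix1 283 and 235 CPM, Msx1 161 and 175 CPM, and Irx3 74.3 and 76.5 CPM. None of these was called, with log2 ratios between -0.11 and 0.26. By library Pitx1 had 184, 250.4, 204 and 259 CPM in limb-type cells and 194, 191, 241 and 163 CPM in Wnt2-positive cells.

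Other genes differed between these cells. Of 7578 genes tested, 23 (0.304%) were called higher and 47 (0.62%) lower. Lhx9 had 111, 65.2, 101 and 102 CPM in limb-type cells of libraries 1 to 4 against 0, 1.64, 0 and 0 CPM, and 1 UMI in all Wnt2-positive cells (log2 ratio 3.35). Hoxa10 had 87.2 against 9.99 CPM and Hoxc10 121 against 39.6 CPM. Of 26 Hox genes tested these 2 were called higher and 3 lower, Hoxc6, Hoxc8 and Hoxc9, at 40.9, 45.8 and 43.6 CPM against 94.5, 221 and 127 CPM. Sox9, the factor that starts cartilage formation, had 52.8, 75.6, 37.7 and 63.3 CPM against 9.80, 8.18, 0 and 4.59 CPM (log2 ratio 2.13). Its level in limb-type cells matched that of all other barcodes (59.2 and 54.9 CPM). Nor was it particular to limb-type cells among Prrx1-positive ones. After thinning it was counted in 14.0% of Pitx1-positive and 16.5% of Pitx1-negative limb-type cells, against 17.1% of the other Prrx1-positive cells. Mecom had 67.9 against 8.84 CPM, the neurotrophin receptor gene Ngfr 50.1 against 7.30 CPM and cyclin D1 (Ccnd1) 194 against 53.8 CPM. Dusp6, a feedback phosphatase induced by fibroblast growth factors (FGFs), had 66.2 against 23.1 CPM.

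In the other direction, Ppp2r2b, a phosphatase subunit, had 5.03, 2.61, 0 and 1.32 CPM in limb-type cells against 124, 179.9, 179 and 138 CPM in Wnt2-positive cells. Mpped2 had 52.2 against 401 CPM, and the troponin gene Tnni1 5.39 against 73.8 CPM. The visceral mesoderm factors Hand1 and Gata6 had 0.539 and 0 CPM (at most 1.62 CPM for Gata6 from a count of 0) against 70.7 and 56.9 CPM. Of 22 growth and imprinted genes 4 were called lower, beside 0.62% of all genes tested, with a median log2 ratio of -0.20. The imprinted Dlk1 had 763 against 1977 CPM, the noncoding Meg3 1606 against 3611 CPM, and pleiotrophin (Ptn) 759 against 1772 CPM, and Igfbp5 was the fourth at 33.4 against 164 CPM. The WNT inhibitor Sfrp1 had 47.9 against 190.2 CPM. Acta2 had 3.77 against 116 CPM, but 1 cell held 59.6% of its UMIs in the Wnt2-positive group. Marker sums by library moved with this comparison: coelomic markers summed to 6.28 to 25.2 CPM in limb-type cells against 127 to 226 CPM in Wnt2-positive cells, and splanchnic markers to 36.5 to 81.7 against 162 to 183 CPM. Smooth muscle markers summed to 21.1 to 28.7 against 43.4 to 354 CPM and muscle markers to 20.1 to 95 against 15.8 to 227 CPM. Their part in the difference was not tested.

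**Figure D2:**
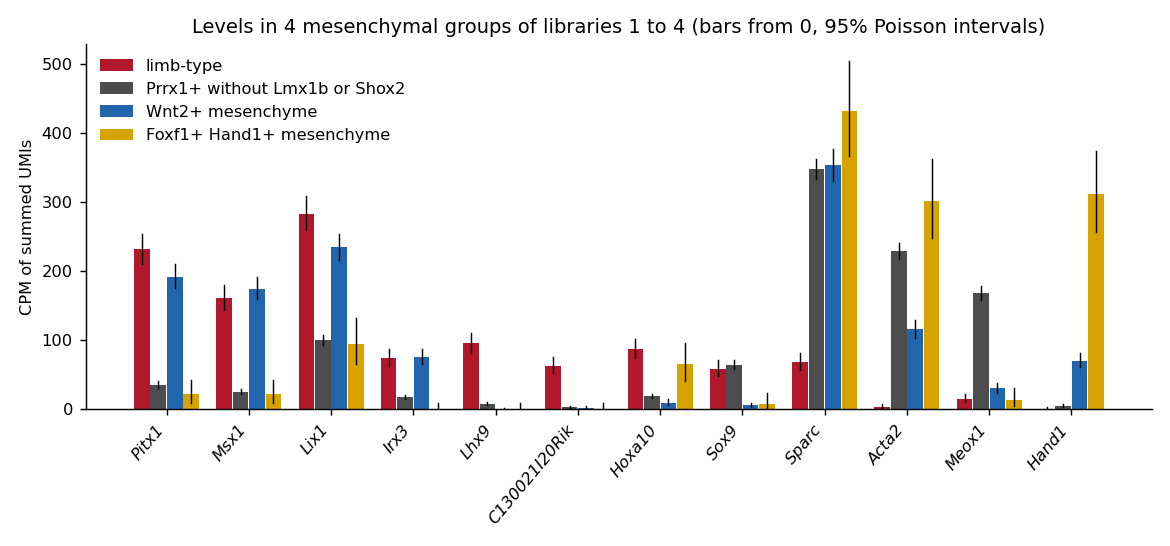
CPM of summed UMIs for 12 genes in limb-type cells (red), other Prrx1-positive cells (dark grey), Wnt2-positive mesenchyme (blue) and Foxf1- and Hand1-positive mesenchyme (yellow); bars start at 0 and black lines are 95% Poisson intervals. Pitx1, Msx1, Lix1 and Irx3 are at like heights in the limb-type and Wnt2-positive cells. Lhx9, Hoxa10 and Sox9 are higher in limb-type than in Wnt2-positive cells, but Sox9 is not set apart from the other Prrx1-positive cells. Hand1 was used to pick the yellow group.

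Foxf1- and Hand1-positive mesenchyme, 54 cells with both of these visceral mesoderm factors (median 6310.5 UMIs), had no UMI of several limb bud genes. They held no UMI of Wnt2, Lmx1b or Shox2 and met the other zeros. Unlike the groups above they were not asked to have Prrx1, and 3 of the 54 cells had it. Of 8160 genes tested, 61 (0.748%) were called higher in limb-type cells and 125 (1.53%) lower. The retinoid binding genes Crabp2 and Crabp1 had 579 and 1057 CPM in limb-type cells against 21.7 (9.36 to 42.7) and 56.9 CPM (35.2 to 87.02). Of 10 retinoid genes tested, these and Rarb were called higher and 2 lower, among them Aldh1a2 at 16.7 against 73.2 CPM. Of 9 limb identity genes tested, Pitx1, Lhx9, Msx1 and Lix1 were called higher, and Isl1 was called lower at 17.2 against 78.6 CPM. Of 27 Hox genes tested 1 was called higher and 2 lower, and both lower genes were of the HoxD cluster. The HoxD genes summed to 117 CPM in limb-type cells against 236 CPM. Of 11 genes of the proximal to distal axis tested, 2 were called higher and 2 lower. Pitx1 had 232 against 21.7 CPM and Asb4 179.9 against 13.6 CPM. Lhx9, Irx3 and Mecom had no UMI in the Foxf1 and Hand1 cells, which allows up to 8.13 CPM, so their limb-type levels of 95.9, 74.3 and 67.9 CPM stood above that limit. Saa1, a serum amyloid gene, had 1.08 against 189.8 CPM, Mab21l2 3.77 against 174 CPM and the myelin protein gene Pmp22 5.92 against 195 CPM. Of the Acta2 UMIs in the Foxf1 and Hand1 cells, 90.99% came from 1 cell. Over all libraries the coelomic markers summed to 15.1 CPM in limb-type cells against 331 CPM in the Foxf1 and Hand1 cells, the ectodermal markers to 14.5 against 252 CPM and the smooth muscle markers to 24.8 against 445 CPM, and their part in the difference was not tested. The coelomic and ectodermal sums are not separate, since both lists hold Krt8 and Krt18, and only 2 of the 11 ectodermal genes reached the level for testing.

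The genes of limb bud regions gave mixed values. Of 13 limb identity genes, 9 were tested against all other barcodes. Of these, 4 were called higher (Pitx1, Lhx9, Msx1 and Lix1) and 1 lower, beside 0.333% and 1.01% of all genes tested. The median log2 ratio of the 9 genes was 2.09, beside -0.01 over all genes tested. The list was chosen with earlier results of these data known, and Pitx1 and Lix1 are markers of the label. The gene called lower was Isl1, a factor of the early hindlimb field and of motor neurons, at 17.2 CPM against 77.6 CPM. Tbx5 had 8.08 CPM, Tbx4 6.46 CPM and Fgf10, the limb bud's own FGF ligand, 7.54 CPM in limb-type cells. At these levels few UMIs were counted, and Tbx5 was detected in 11 of 180 cells, Tbx4 in 10 of 180 and Fgf10 in 14 of 180. In endothelial barcodes the same genes were counted in 0 of 69, 0 of 69 and 0 of 69 cells, and in neuronal barcodes in 1 of 1013, 0 of 1013 and 8 of 1013. After thinning, 5, 1 and 1 limb-type cells kept a UMI.

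Along the proximal to distal axis, 2 of 11 tested genes were called higher, Lhx9 and Hoxa10, beside 0.333% of all genes tested, with a median log2 ratio of 0.96. The proximal factors Meis1 and Meis2 had 115 and 327 CPM against 124 and 280.3 CPM and were not called. Hoxa11 had 19.9 against 2.09 CPM and Hoxd11 19.9 against 3.83 CPM, under the level for a call, while the most distal genes Hoxa13 and Hoxd13 had 0.539 and 7.001 CPM. Along the anterior to posterior axis, 1 of 9 tested genes was called higher (Irx3; median 0.89). The posterior factor Hand2 had 15.6 against 9.48 CPM, and Gli3, which restrains hedgehog targets, 61.9 against 28.3 CPM. Shh, the posterior signal itself, had 1 UMI in all limb-type cells (0.539 CPM).

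Of the signalling lists, each had at most 1 gene called against all other barcodes, where 0.333% of all genes were called higher and 1.01% lower. Of 9 FGF pathway genes tested none was called (median 0.52). Dusp6 had 66.2 against 36.5 CPM, the FGF-induced factor Etv4 30.7 against 9.96 CPM and the receptor gene Fgfr1 70.01 against 45.9 CPM. Fgf8, the ectodermal ridge ligand, had no UMI in limb-type cells. Of 10 BMP pathway genes tested, Msx1 alone was called (median 0.22). The ligand genes Bmp4 and Bmp7 had 54.9 and 41.5 CPM against 35.1 and 8.17 CPM, and the joint ligand Gdf5 and the antagonist Nog had no UMI. Of 14 WNT genes tested, Lef1 was called higher (median 0.14), and of 10 retinoid genes Rarb (median 0.24). Crabp1 had 1057 against 642 CPM (log2 ratio 0.71), under the ratio for a call in this comparison.

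Tissue lists are read against the 1.01% of all genes called lower and the 0.333% called higher. None of 9 skeletal genes tested was called (median -0.44), and Col2a1 of cartilage had 25.3 against 58.2 CPM. Of 21 matrix genes 1 was called lower, Sparc (median 0.02), and of 21 mesenchymal genes Twist2 was called higher and 5 lower, namely Vim, Zeb2, Meox1, Ebf1 and Foxp1 (median -0.26). Of 21 guidance genes 2 were called lower, Nrp1 and Cxcl12 (median -0.25). Of 22 growth and imprinted genes 2 were called lower, Igfbp5 and Cdkn1c, although the median was 0.34: Mest had 1998 against 1128 CPM and the chromatin protein gene Hmga2 937 against 533 CPM, neither called. None of 20 S phase and 20 G2/M genes was called, with medians of 0.14 and 0.14.

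Lmx1b and Shox2 mark different domains of a limb bud, and the rule joined them. Lmx1b alone was counted in 70 cells (median 9076 UMIs), both in 51 (median 11312) and Shox2 alone in 59 (median 9917). Of 7816 genes tested between the single classes, 6 (0.0768%) were called higher in cells with Lmx1b alone and 3 (0.0384%) lower. Ifitm1, an interferon-induced membrane protein gene, had 42.3, 71.1, 38.7 and 68.5 CPM in libraries 1 to 4 of the Lmx1b cells against 8.04, 0, 12.1 and 7.40 CPM in the Shox2 cells (log2 ratio 1.97), without overlap. Igf1, a growth factor gene, had 96.7, 134, 149 and 105 against 24.1, 66.3, 48.2 and 59.2 CPM and the collagen gene Col1a2 79.6 against 33.4 CPM. Tusc2 and Rrp9 were also called higher. Cxcl12 had 22.5 against 55.2 CPM, and with Ypel3 and Nup93 made up the genes called lower. These counts were small and did not hold their size when libraries 1, 2, 3 or 4 were left out in turn (12 to 23 higher and 5 to 23 lower). Of the 6 genes higher 3 to 5, and of the 3 lower 1 or 2, were then called again. Without the barcodes with the highest 5% of doublet scores, 5 of the 6 higher and 0 of the 3 lower were called again. After thinning to 3000 UMIs these were 3 of 6 and 0 of 3. Pitx1 had 243 CPM in Lmx1b cells and 155 CPM in Shox2 cells, Lhx9 88.6 and 73.6 CPM, and Msx1 161 and 135 CPM, none of them called. Hoxd11 had 4.51 CPM in cells with Lmx1b alone, 26.98 CPM in cells with both and 30.1 CPM in cells with Shox2 alone.

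By limb identity, 100 of the 180 cells had a UMI of Pitx1 or Tbx4 and none of Tbx5, 11 had Tbx5 and neither of the others, and 69 had none of the 3. No cell had Tbx5 together with Pitx1 or Tbx4. All 10 cells with Tbx4 and all 14 with Fgf10 were among the Pitx1-positive cells. Pitx1 or Tbx4 was counted in 35 of 70 cells with Lmx1b alone, 40 of 51 with both and 25 of 59 with Shox2 alone, and the cells with both also had the highest median depth.

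**Figure D3:**
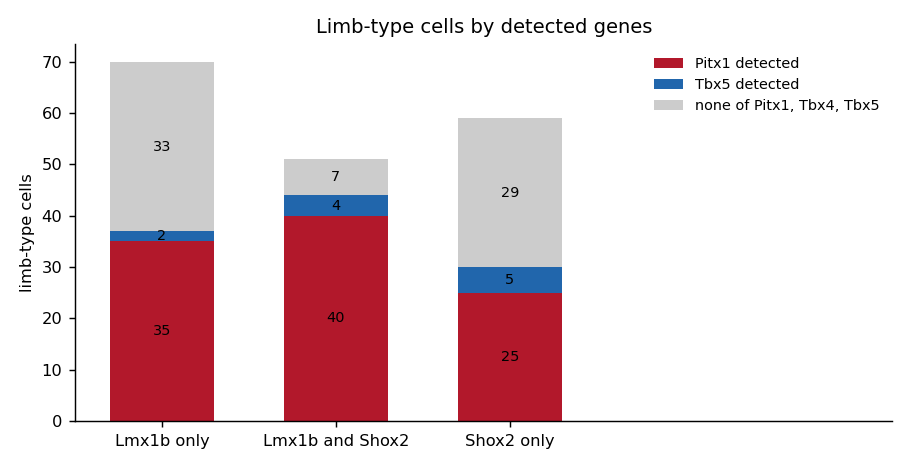
Number of limb-type cells with a UMI of Pitx1 (red), of Tbx5 (blue) or of none of Pitx1, Tbx4 and Tbx5 (grey), stacked for cells with Lmx1b only, both genes, or Shox2 only. The cells with both Lmx1b and Shox2 hold 40 Pitx1-positive cells of 51, and the Tbx5 cells number 2, 4 and 5.

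The 11 Tbx5 cells were too few for a comparison within libraries and their summed values are given for description (a single UMI weighs heavily in them, and a count of 0 allows up to 24.1 CPM). Hoxc10 had 173 CPM (149 to 199) in Pitx1 or Tbx4 cells, 0 CPM in Tbx5 cells and 50.4 CPM in the cells with none. It was counted in 75 of 100, 0 of 11 and 9 of 69 cells, and after thinning in 40.0% of the Pitx1 or Tbx4 cells. Outside the limb-type cells it was counted in 4 of 69 endothelial barcodes, 254 of 1013 neuronal barcodes and 26 of 54 Foxf1 and Hand1 cells. Osr1, an intermediate and lateral mesoderm factor, had 12.5, 120.5 and 51.99 CPM, and Tbx3, a factor of limb margins, 14.3, 104 and 39.0 CPM. Hoxd9 had 23.3, 137 and 24.4 CPM. Emx2, a factor of the shoulder and urogenital region, had 9.85, 80.3 and 64.99 CPM. Msx1 ran the other way at 232, 40.2 and 56.9 CPM.

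A comparison added after these group sizes were seen set the 100 Pitx1-positive cells (median 10687.5 UMIs) against the 80 Pitx1-negative cells (median 8868 UMIs). Of 7586 genes tested, 19 (0.25%) were called higher in Pitx1-positive cells and 55 (0.725%) lower. With every cell thinned to 3000 UMIs before the split, 34 genes were called higher, among them 6 of the 19 (Hoxa9, Hoxa10, Hoxc10, Msx1, Mecom and Noc2l), and 25 of the 55 genes were again called lower. Among the Hox genes, 3 of 27 tested were called higher and 1 lower. Hoxa10 had 140.3, 139, 145 and 116 CPM in Pitx1-positive cells of libraries 1 to 4 against 18.5, 5.70, 34.2 and 31.2 CPM in Pitx1-negative cells (pooled 129.8 and 22.97 CPM, log2 ratio 2.08). Hoxc10 had 136, 245, 116 and 179 CPM against 0, 62.7, 82.1 and 31.2 CPM (log2 ratio 1.82), and Hoxa9 158 against 68.9 CPM. In all these the groups did not overlap by library. Hoxc11 had 24.2 CPM against no UMI, which allows up to 4.05 CPM in Pitx1-negative cells, and Hoxa11 27.8 against 8.11 CPM. The genes nearer the 3' end of the clusters were lower or alike: Hoxa7 had 44.8 against 94.6 CPM, Hoxc5 5.37 against 48.6 CPM and Hoxc6 27.8 against 60.8 CPM, none called. Hoxb2 was called lower at 25.1 against 81.1 CPM.

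**Figure D4:**
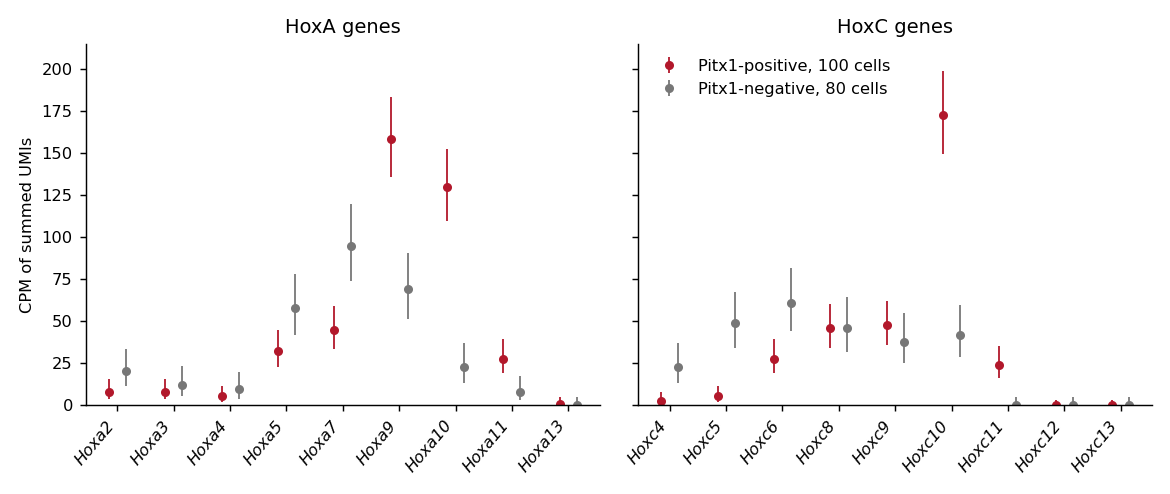
CPM of summed UMIs of HoxA (left) and HoxC (right) genes in Pitx1-positive (red) and Pitx1-negative (grey) limb-type cells, ordered along each cluster; points are pooled levels and lines 95% Poisson intervals. Hoxa9, Hoxa10 and Hoxc10 stand higher in Pitx1-positive cells, and Hoxa7, Hoxc5 and Hoxc6 lie lower without being called.

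Of the other factors of the bud, Msx1, Lhx2 and Mecom were called higher in Pitx1-positive cells. Msx1 had 285, 149, 238 and 239 CPM in Pitx1-positive cells against 36.99, 17.1, 151 and 35.1 CPM in Pitx1-negative cells, and library 3 of the negative cells overlapped library 2 of the positive ones. Lhx2 had 89.3, 43.3, 58.1 and 71.8 against 0, 0, 41.1 and 15.6 CPM, and 1 cell held 40.0% of the UMIs of the negative group. Lhx9 had 135 against 36.5 CPM but was not called, since library 3 went the other way (187, 115, 98.7 and 132 against 0, 5.70, 103 and 42.9 CPM). Mecom had 96.7 against 24.3 CPM. Lin28a, an RNA-binding protein of early progenitors, had 62.7 against 14.9 CPM, and Sall4, a zinc finger factor of limb and stem cells, 51.03 against 14.9 CPM. Crabp1 had 1338 against 632 CPM, and Chchd4, a mitochondrial import protein gene, 199 against 83.8 CPM.

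The share of cells with Lhx2 was larger among cells with Lhx9. Lhx2 was present in 35 of 58 cells with Lhx9, against 9 of 122 cells without it (60.3% and 7.38%), and after thinning in 7 of 33 against 10 of 146. Msx1 was present in 47 of the Lhx9 cells against 28 of the others, and after thinning in 54.5% against 17.8%. Emx2 was the reverse, in 5 of the Lhx9 cells against 34 of the others. Cells with Lhx9 had a median of 11595.5 UMIs, against 8987.5 UMIs in those without, so the unthinned shares rest on unequal depth.

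Matrix, early-response and growth genes were among those lower in Pitx1-positive cells. Sparc had 4.25, 9.62, 0 and 27.9 CPM in Pitx1-positive cells of libraries 1 to 4 against 129, 296, 61.6 and 109 CPM in Pitx1-negative cells (log2 ratio -2.65). The early-response genes Cyr61, Fos and Egr1, which cells switch on quickly after a stimulus, had 13.4, 8.95 and 10.7 CPM against 135, 104 and 107 CPM, without overlap by library. Of 19 matrix genes tested 4 were called lower, Sparc, Col1a2, Vcan and Mfap4 (median -0.36, beside -0.06 over all genes tested), and Vcan, a proteoglycan, had 31.3 against 141 CPM. Of 21 growth genes 5 were called lower and 1 higher, beside 0.725% and 0.25% of all genes: Igf1 had 32.2 against 131 CPM, the cell cycle inhibitor gene Cdkn1c 40.3 against 173 CPM and Meg3 1075 against 2408 CPM.

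Other genes were also lower in Pitx1-positive cells. Emx2 had 9.85 against 67.6 CPM, Osr1 12.5 against 63.5 CPM and Tbx3 14.3 against 50.0 CPM. Sfrp1 had 12.8, 14.4, 23.2 and 13.95 CPM in libraries 1 to 4 of the Pitx1-positive cells against 123, 125, 75.3 and 74.2 CPM in those of the Pitx1-negative cells, with no overlap. The cartilage collagen gene Col2a1 had 7.16 against 52.7 CPM and Vim 46.6 against 159 CPM. Marker sums of other lineages differed along this split: over all libraries the muscle markers summed to 7.16 CPM in Pitx1-positive and 123 CPM in Pitx1-negative cells, the coelomic markers to 4.48 and 31.1 CPM, the smooth muscle markers to 13.4 and 41.9 CPM and the splanchnic markers to 69.8 and 36.5 CPM. Of the muscle sum, most Myog and Actc1 UMIs were those of the single cell named above, and the part of these lineages in the difference was not tested. Pitx1 was the splitting gene and a cell without a Pitx1 UMI may still express it, so the split also follows depth. Of the genes named for this split, Lhx2, Lin28a, Sall4, Crabp1 and Chchd4 were no longer called higher, and Cdkn1c, Col1a2, Igf1, Meg3, Emx2, Osr1, Tbx3, Col2a1 and Vim no longer lower, when the cells were thinned first. The log2 ratio was then 0.54 for Lhx2, 0.72 for Lin28a, 1.25 for Hoxa10, 1.21 for Hoxc10 and 1.95 for Msx1. Of the named genes no longer called, Sall4 (1.17), Emx2 (-1.51), Osr1 (-1.66), Tbx3 (-1.14) and Col2a1 (-2.52) kept a ratio of at least 1 in size. Emx2, Tbx3 and Col2a1 then had 31.4, 22.0 and 47.2 CPM in Pitx1-negative cells, under the level for a call. The ratios of Crabp1, Chchd4, Cdkn1c, Col1a2, Igf1, Meg3 and Vim fell under 1 in size, at 0.81, 0.996, -0.94, -0.88, -0.96, -0.68 and -0.97.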

How the data were processed

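Droplet RNA libraries of 3 sorted AGM populations, 1 sample each, were deposited as 1 pooled matrix of raw UMI counts per gene and barcode (27998 genes, 9492 barcodes, 78653331 UMIs); per the submitters' processing notes the authors ran Cell Ranger (no version is named) on mm10. The deposited gene and barcode names carry no unit. Per the labels' protocols each population was split over 2 lanes as technical repeats and loaded for a doublet rate below 5%; the matrix has 8 barcode suffixes that no label ties to a population, so they were treated as libraries of 1 sample and no p-value was computed. Intervals (95%) and limits from a count of 0 (3 counts per group) cover counting error only.

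Barcodes were filtered and chosen as described above with Python 3.11.15, numpy 2.4.6, scipy 1.17.1 and pandas 2.3.3; no doublets were removed in the main values, and scanpy 1.11.5 scrublet scores were used as an alternative. UMIs were summed per group and scaled to CPM. Log2 ratios used a pseudocount of 10 CPM. Genes at 10 CPM or more in either group were tested against the call rule (absolute log2 ratio of at least 1, 50 CPM, the same direction in each library with 20 cells of both groups). For splits within limb-type cells 10 cells were asked for, and likewise for the Foxf1 and Hand1 group, the latter set after group sizes were seen. Of cells with Shox2 alone, library 3 held 9, so it did not enter the check of direction between the Lmx1b and Shox2 classes. The Pitx1 split was added after seeing the data. The call rule was tried on simulated counts with counting error only, where well-counted genes were given changes larger than the least ratio called. Spread between cells, smaller changes and genes near the level for a call were not simulated. Shares of cells were also computed after thinning each cell to 3000 UMIs.

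The members, marker lists and gene lists were chosen with earlier results of these data known. Named genes were the 12 highest and 8 lowest called against all other barcodes, the 8 highest and 6 lowest of each other comparison, and listed members; some of these are not reported here. Others named (such as Rarb, Lef1, Crabp2, or Hoxb2) came from the gene lists or were chosen after their values were seen. Alternatives were each library left out, doublet scores, stricter cell filters, membership rules, pseudocount, thinning, weighting, centring and level. Promoter sequence is from RefSeq, GRCm38.p6, and gene positions are from GENCODE; figures were drawn with matplotlib 3.10.9.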

Additional observations from a re-analysis of the deposited data

Results flagged for a closer look

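The embryonic globin gene Hba-x had 1.319 CPM in the limb-type cells of library 4, from a single UMI, and 0 in those of libraries 1, 2 and 3, so 1 library stood apart from the others. At such counts any single UMI sets a library apart. It was the 1 set of 26 looked at that stood apart in this way. In all other barcodes Hba-x had 135, 225, 0.181 and 255 CPM in libraries 1 to 4.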

How the results depend on the processing

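Over 85 log2 ratios of named genes and 1374 alternatives, none reversed, 1284 stayed within the counting error of the ratio at 95% and 90 moved further. These genes were picked because they were called, with the same direction in each eligible library, so a reversal was unlikely by construction. The levels of 20 and 100 CPM leave a ratio unchanged, and those alternatives count among the ones that stayed. Leaving out 1 library at a time gave 119 to 145 limb-type cells (119 without library 4) and, between cells with Lmx1b alone and with Shox2 alone, 12 to 23 genes higher and 5 to 23 lower, while 22 to 25 of the 26 genes called higher against all other barcodes and 11 or 12 of the 12 against other Prrx1-positive cells remained. Asking for 2 UMIs of Lmx1b and Shox2 left 109 cells (1.606%), with 19 genes higher against Prrx1-positive cells and 51 higher and 40 lower between the Lmx1b and Shox2 classes. Without the genes required at 0 the share was 3.448%, with 16 genes higher and 41 lower against all other barcodes, 24 lower against Prrx1-positive cells, and 1 higher and 20 lower between the classes. A pseudocount of 1 CPM gave 11 higher and 11 lower between the classes, the mean of cells 8 lower and the mean of libraries 11 higher. Thinning to 3000 UMIs gave 129 genes higher against Foxf1 and Hand1 cells, 53 higher and 76 lower between the classes, and 64 higher and 105 lower in Pitx1-positive cells (34 higher where the thinning came before the split). At a level of 20 CPM the counts higher and lower were 40 and 166 against all other barcodes, 23 and 73 against Prrx1-positive, 53 and 93 against Wnt2-positive, 123 and 256 against Foxf1 and Hand1 cells, 32 and 34 between the classes, and 32 and 137 by Pitx1. At 100 CPM they were 9 and 40, 5 and 25, 9 and 24, 24 and 58, 1 and 0, and 9 and 30, in the same order. A stricter or looser level changes the counts by construction, and for the other settings the cause was not tested. Depth limits the genes under 50 CPM and the groups of 54 and 11 cells most. No paired analysis was possible because the matrix is 1 sample and no result came from a test.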
